A study of Rattus norvegicus with 4 samples.

Results

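Genes that decide whether a stressed cell dies or stops dividing were followed in INS-1 cells, an insulin-secreting line from a rat insulinoma, after a week in high glucose. The set was chosen by symbol and not by measured values. It holds all BCL2-named genes, the numbered caspases, IAP genes (Birc), TNF receptors (Tnfrsf), TRAF genes, CDK inhibitors (Cdkn) and cyclins G (Ccng), the Gadd45 genes, and Bak1 and Bax. Birc5, a mitotic gene, was left out. These names gave 49 genes of the 14557 with a single symbol, each with 1 probe set. Mcl1, Bid, Bad, Bbc3 and Mdm2, which the rule also names, and Casp9 and Cdkn1a were not analysed here, and neither were 2 probe sets that carry a second symbol beside Bax or Bcl2l1. The groups compared were cells kept for 7 days at 22.4 mM glucose (2 arrays) and cells kept for 7 days at 11.2 mM (2 arrays). All cells were of the same line, and no other agent is named in the labels. The labels do not say whether the 2 arrays of a group came from separate cultures, so each p-value measures only the spread between arrays, which may be technical. A lower signal in such bulk RNA can come from fewer cells of a kind or from less RNA per cell, which cannot be told apart.

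Mitochondrial cell death is governed by the BCL2 family. Bax and Bak1 open pores in the outer mitochondrial membrane, Bcl2 and its closest relatives hold them back, and the caspases are the proteases that then dismantle the cell. Death can also start at the surface, where receptors of the TNF receptor superfamily recruit adaptors, TRAF proteins and the IAP ubiquitin ligases that Birc2 and Birc3 encode. Growth arrest runs through CDK inhibitors of the CDKN families, the GADD45 stress proteins and targets of the transcription factor p53 such as Ccng1. Loss of beta cells in prolonged high glucose is commonly discussed in terms of these pathways.

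On the 4 arrays the beta cell markers were bright. The 5 of 7 listed beta cell markers that were measured had log2 signals between 6.79 and 12.57, while Ins2 differed by -1.84 (22.4 mM minus 11.2 mM, log2 scale). Of 5 acinar and ductal markers, 4 lay below the median row signal of 4.76, the exception being Krt7, and the 3 immune markers all lay below it. Among 4 other islet hormone genes only Gcg was above that median, with 11.14 and 11.08 at 22.4 mM and 11.24 and 11.07 at 11.2 mM. Of 6 listed stromal and endothelial markers 4 were measured, Col1a1, Col1a2, Col3a1 and Vim, and the endothelial Pecam1 and Kdr were not. These 4 had signals from 3.97 to 5.50, and 3 of them lay above that median. Array medians lay between 4.73 and 4.80. Replicate 1 of 11.2 mM stood apart. Over all 36685 rows it differed from the other arrays by a mean absolute log2 difference of 0.213 to 0.246, against 0.172 to 0.195 among the other 3. Genes of the CHOP stress pathway marked that array, with a median of 1.62 above replicate 2 over 8 genes. Its part in the differences of the genes described here was not tested, and differences of at least 0.2 that moved by over 1.5 times without it are also given without it.

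The members with the widest separation were Bak1, Ccng1, Gadd45a, Bcl2l14 and Bax, which were higher at 22.4 mM, and Bcl2 and Gadd45g, which were lower. Promoters of 6 of these 7 genes were available, and the 3 that hold a match to a motif searched are shown so that the match can be seen in place. Each runs from 250 bases before to 50 bases after the RefSeq start of the gene, on the gene's own strand, in build GRCr8. Capitals mark the matches. They are to the p53 half-site consensus in Ccng1 (minus strand, chr10:25684827-25685126) and Gadd45a (minus strand, chr4:97486750-97487049), and to CACGTG, an E-box bound by glucose-responsive and other factors, in Gadd45g (minus strand, chr17:13530302-13530601).
Ccng1: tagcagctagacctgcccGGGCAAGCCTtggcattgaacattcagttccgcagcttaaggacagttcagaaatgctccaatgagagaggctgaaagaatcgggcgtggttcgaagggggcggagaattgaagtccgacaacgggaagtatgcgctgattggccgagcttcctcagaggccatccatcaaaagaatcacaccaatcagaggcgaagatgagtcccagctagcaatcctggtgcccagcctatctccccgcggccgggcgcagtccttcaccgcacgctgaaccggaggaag
Gadd45a: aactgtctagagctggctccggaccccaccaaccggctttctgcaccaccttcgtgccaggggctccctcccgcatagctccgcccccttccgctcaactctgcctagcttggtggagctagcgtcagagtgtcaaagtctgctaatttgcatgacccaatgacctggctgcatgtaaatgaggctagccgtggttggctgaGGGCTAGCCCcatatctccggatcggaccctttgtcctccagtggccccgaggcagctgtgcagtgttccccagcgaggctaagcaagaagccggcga
Gadd45g: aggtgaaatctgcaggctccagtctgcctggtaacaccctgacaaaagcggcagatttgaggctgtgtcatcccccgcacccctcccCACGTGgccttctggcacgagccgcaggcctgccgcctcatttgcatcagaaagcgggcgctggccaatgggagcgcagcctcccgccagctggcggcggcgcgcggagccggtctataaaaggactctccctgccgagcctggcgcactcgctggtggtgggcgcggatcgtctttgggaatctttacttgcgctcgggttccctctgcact
Both strands were searched for 3 motifs, the p53 half-site, the NF-kB site and CACGTG, with no mismatch. The p53 half-site was found in 5 of 38 member promoters (13.2%), which were Ccng1, Gadd45a, Cdkn2c, Tnfrsf4 and Tnfrsf17, against 7.49% of 18999 promoters of protein-coding genes. The NF-kB site was found in Traf3, Traf3ip2 and Tnfrsf8 (7.89%, against 4.38%), and CACGTG in Gadd45b, Gadd45g, Tnfrsf21 and Tnfrsf4 (10.5%, against 7.26%). These matches are letters in a short window and do not show binding. The promoters of Bak1, Bcl2 and Bcl2l14 held none of the 3.

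None of the 49 genes passed the test across the table. Limma with Benjamini-Hochberg adjustment over 36685 rows called 0 of them, with a lowest adjusted p of 0.317 for Bcl2l14, and it called 0% of all rows. At an unadjusted p under 0.05 there were 8 of 49 genes (16.3%), 5 higher and 3 lower. Of all rows 9.12% reached that level, 4.36% higher and 4.75% lower. Among rows at or above the median signal, where all 8 lie, it was 13.5%. As a list the genes did not lean to a side. Their median log2 difference, 22.4 mM minus 11.2 mM, was 0.012, against -0.0027 over all rows, with 27 positive and 22 negative. The groups did not overlap in 20 genes (40.8%), and the same held for 40.6% of all rows and for 47% of rows at or above the median signal. Of the 20, 12 were higher and 8 lower at 22.4 mM, against 19.6% and 21% of all rows. Asking also for a difference of at least 0.4 on the log2 scale left 7 genes (14.3%), against 7.61% of all rows and 11.7% of rows at or above the median signal, where all 7 lie. Without replicate 1 of 11.2 mM that number was 4, against 8.26% of all rows. Of the 49, 34 were at or above that median and 15 below it, where background is not given and the size of a difference is not settled. Those 15 had differences between -0.11 and 0.15.

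**Figure D1:**
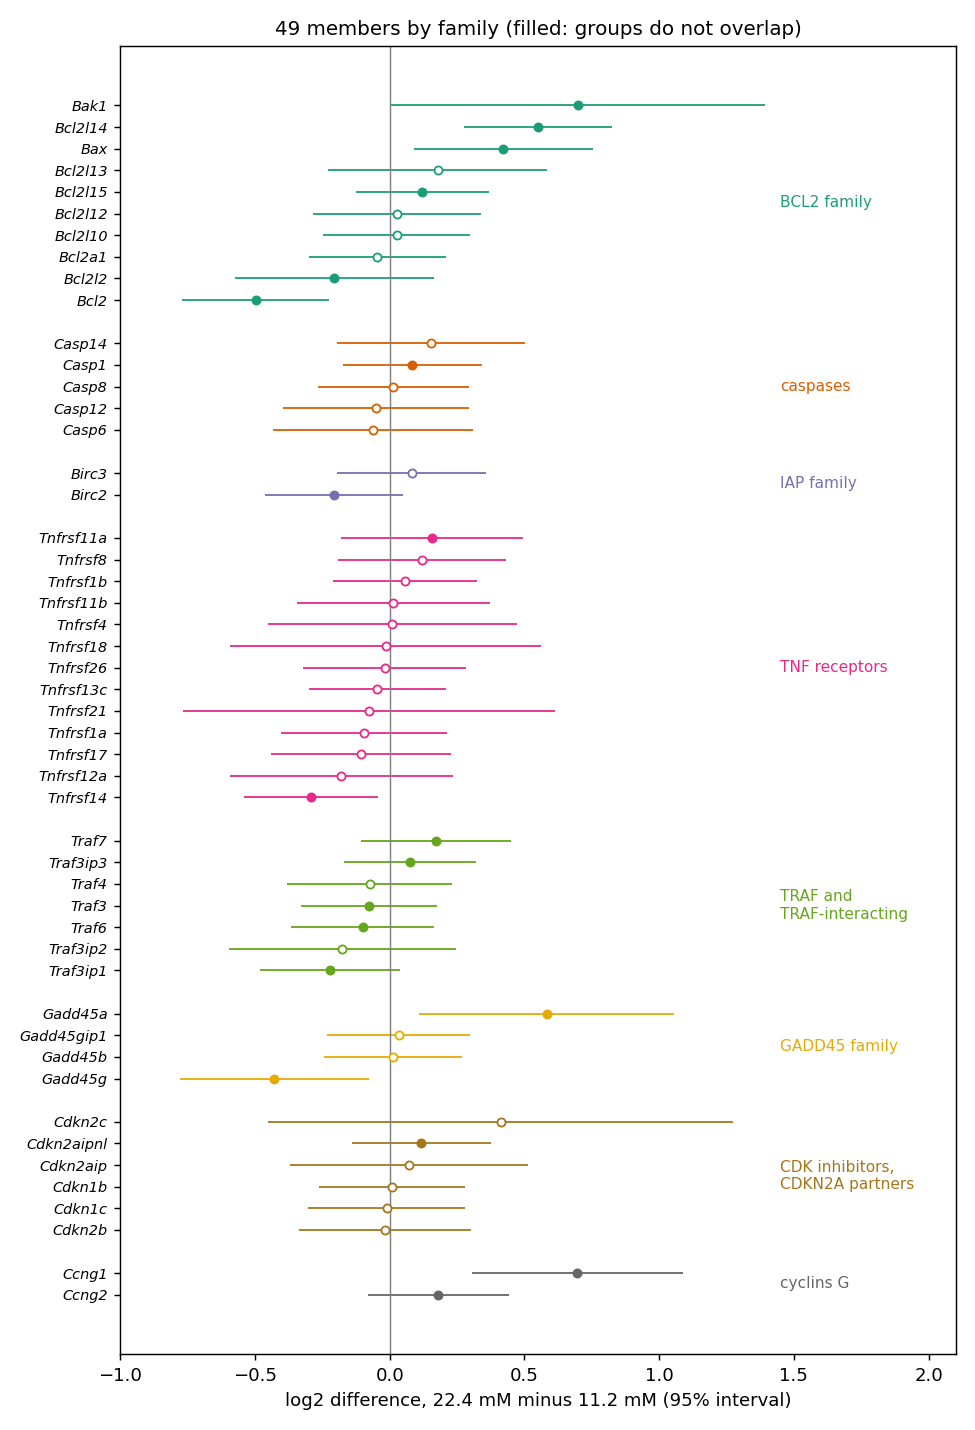
Log2 differences (22.4 mM minus 11.2 mM, horizontal axis) of the 49 genes by family, with 95% intervals of the limma fit; filled points mark the 20 genes whose groups do not overlap. Bak1 and Ccng1 lie farthest to the right at 0.70 and Bcl2 farthest to the left at -0.50, and the intervals of most genes span 0.

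The pore-forming genes and Bcl2 lay on opposite sides. Bak1 (probe set 17757020), an effector of mitochondrial permeabilization, had log2 signals of 8.97 and 9.30 at 22.4 mM, against 8.09 and 8.78 at 11.2 mM. Both high-glucose arrays were the brighter, and replicate 1 of 11.2 mM was well below the others. The difference was 0.70 (SE 0.265, 1.62-fold, limma adjusted p = 0.545), and 0.36 without that array, so its size depended on it. Without replicate 2 of 11.2 mM it was 1.04. Bax (17632894), the other effector, had 6.68 and 6.92 at 22.4 mM, against 6.33 and 6.42 at 11.2 mM. Its groups did not overlap, with a difference of 0.42 (SE 0.127, 95% interval 0.09 to 0.75, limma adjusted p = 0.465), and it was 0.30 to 0.55 with any array left out. Bcl2 (17683445), an anti-apoptotic member of the family, had 7.999 and 8.02 at 22.4 mM, against 8.44 and 8.58 at 11.2 mM. Replicates were close in both groups and the groups were clear of each other. The difference was -0.50 (SE 0.104, 1.41-fold lower, 95% interval -0.77 to -0.22, limma adjusted p = 0.349), and it stayed between -0.57 and -0.43 with any array left out.

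Among the further BCL2 relatives, Bcl2l14 (17787691), which encodes the protein Bcl-G, had 5.91 and 5.99 at 22.4 mM, against 5.33 and 5.46 at 11.2 mM. This was the member with the smallest p, a difference of 0.55 (SE 0.105, 1.46-fold, unadjusted p = 0.00396, limma adjusted p = 0.317), and it was 0.49 to 0.61 with any array left out. Bcl2l2 (17698676), an anti-apoptotic relative of Bcl2 also called Bcl-w, had 6.06 and 6.39 at 22.4 mM, against 6.43 and 6.44 at 11.2 mM. Only replicate 1 of 22.4 mM was clearly low, and without it the difference of -0.21 was -0.04. Bcl2l13 (17786674), a mitochondrial family member, had 7.85 and 8.07 at 22.4 mM, against 7.62 and 7.94 at 11.2 mM, and the groups overlapped. The other 4, Bcl2a1, Bcl2l10, Bcl2l12 and Bcl2l15, lay below the median signal with differences from -0.05 to 0.12. Counted over the 10 BCL2 family genes, 6 had groups apart, 4 higher and 2 lower (60%, against 40.6% of all rows).

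**Figure D2:**
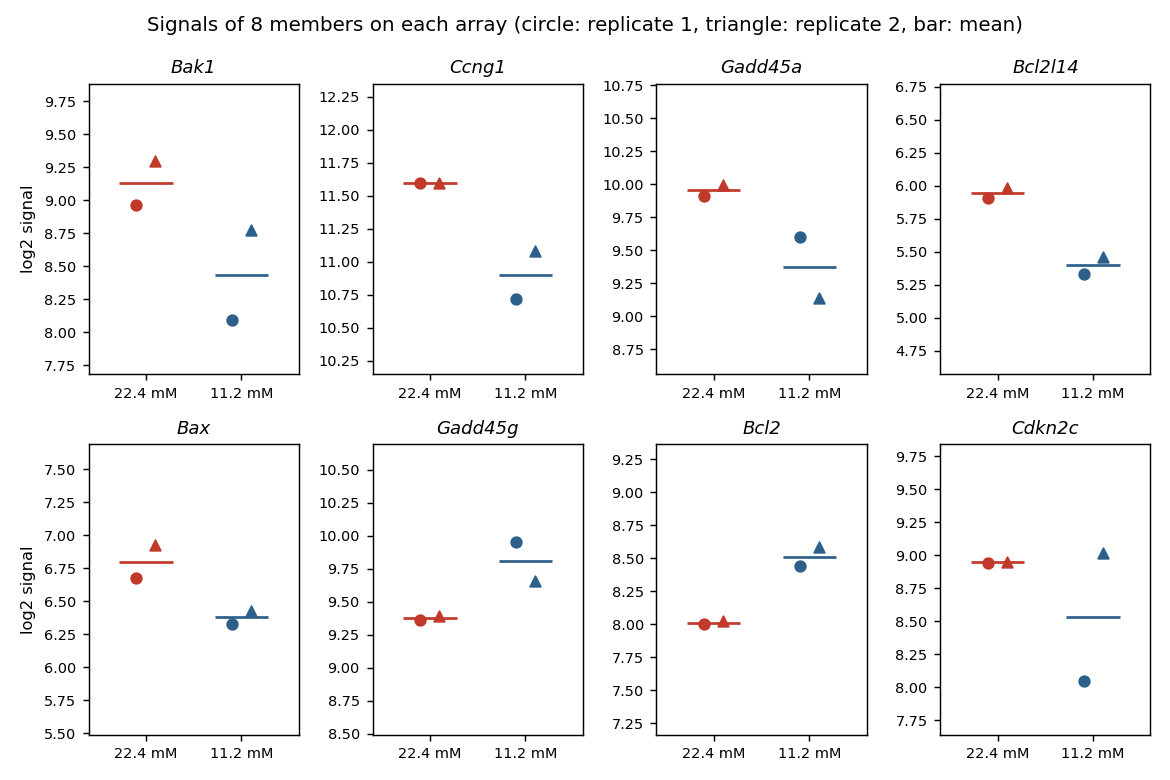
Log2 signal (vertical axis, each panel spanning the same 2.2 log2 units) of 8 genes on the arrays of 22.4 mM and 11.2 mM glucose; circles are replicate 1, triangles replicate 2 and bars the group mean. Groups are apart in Bak1, Ccng1, Gadd45a, Bcl2l14, Bax, Gadd45g and Bcl2, while Cdkn2c at 11.2 mM spans 8.05 to 9.02 around the high-glucose arrays.

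Caspase genes showed little separation. Casp8 (17859543), the initiator caspase of death receptors, had 4.29 and 4.13 at 22.4 mM, against 4.18 and 4.21 at 11.2 mM, below the median signal. The difference was 0.012 (95% interval -0.27 to 0.29). Casp6 (17742655), an executioner caspase, had 5.03 and 5.33 at 22.4 mM, against 5.17 and 5.31 at 11.2 mM, and was the 1 caspase above the median signal. The inflammatory caspase genes Casp1 and Casp12 differed by 0.08 and -0.05, and Casp14, known from skin, by 0.15, all from dim signals. Groups were apart in 1 of 5 caspases, Casp1 (20%, against 40.6% of all rows).

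The IAP genes Birc2 and Birc3 encode ubiquitin ligases that act at TNF receptor complexes. Birc2 (17849414) had 6.94 and 7.04 at 22.4 mM, against 7.20 and 7.19 at 11.2 mM, so the groups were apart by a small margin. The difference was -0.21 (SE 0.0977, 95% interval -0.46 to 0.05). Birc3 (17849425) had 6.01 and 5.997 at 22.4 mM, against 5.85 and 5.9999 at 11.2 mM, and its groups overlapped, with a difference of 0.08 (95% interval -0.19 to 0.36).

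Of 13 TNF receptor superfamily genes, 2 had groups apart (15.4%, against 40.6% of all rows), Tnfrsf11a higher and Tnfrsf14 lower. Tnfrsf14 (17813143), the herpesvirus entry mediator, had 5.26 and 5.23 at 22.4 mM, against 5.51 and 5.56 at 11.2 mM. Its replicates were close, and the difference was -0.29 (SE 0.0948, 95% interval -0.54 to -0.04, unadjusted p = 0.0297, limma adjusted p = 0.486). Tnfrsf11a (17679361), the receptor RANK, had 6.91 and 7.19 at 22.4 mM, against 6.91 and 6.88 at 11.2 mM, where 1 high-glucose array barely cleared the other group. Tnfrsf1a (17787389), the main death-domain receptor for TNF, had 8.49 and 8.69 at 22.4 mM, against 8.73 and 8.64 at 11.2 mM. The groups overlapped and the difference was -0.10 (95% interval -0.40 to 0.21).

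The spread between replicates was widest in Tnfrsf21 (17863116), a death-domain receptor also called DR6, among the TNF receptors. It had 7.20 and 7.47 at 22.4 mM, against 7.77 and 7.06 at 11.2 mM, so the high-glucose arrays lay inside the range of the others. Tnfrsf12a (17654148), the receptor for TWEAK, had 7.83 and 7.67 at 22.4 mM, against 8.11 and 7.75 at 11.2 mM. The groups overlapped there too. Receptors best known from lymphocytes, Tnfrsf4, Tnfrsf8, Tnfrsf13c, Tnfrsf17 and Tnfrsf18, differed by -0.11 to 0.12, and Tnfrsf4 was the 1 of these above the median signal. Tnfrsf1b, Tnfrsf11b and Tnfrsf26 had differences of 0.06, 0.01 and -0.02.

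TRAF proteins carry signals from these receptors to kinases and NF-kB. Traf3, a brake on non-canonical NF-kB, and Traf6, a ubiquitin ligase, differed without overlap by -0.08 and -0.10, and Traf7 by 0.17. Each of these gaps was within a 95% interval that spanned 0. Traf7 (17654433) had 8.72 and 8.88 at 22.4 mM, against 8.63 and 8.62 at 11.2 mM. Traf4 differed by -0.08 with overlap. Of the genes named as TRAF-interacting, Traf3ip1 (17861634), which encodes a protein of the ciliary transport machinery, had 7.01 and 7.04 at 22.4 mM, against 7.30 and 7.20 at 11.2 mM. Its difference was -0.22 (SE 0.0988, 95% interval -0.48 to 0.04). Traf3ip2, an adaptor of interleukin-17 receptors, differed by -0.18 with overlap, and the dim Traf3ip3 by 0.07. Groups were apart in 5 of these 7 genes, 2 higher and 3 lower (71.4%, against 40.6% of all rows).

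The 3 GADD45 genes, stress sensors that bind cell cycle and kinase proteins, were 1 higher, 1 lower and 1 nearly level at 22.4 mM. Gadd45a (17791733) had 9.91 and 9.997 at 22.4 mM, against 9.61 and 9.14 at 11.2 mM. Both high-glucose arrays were the brighter, and the 11.2 mM replicates lay far apart. The difference was 0.58 (SE 0.18, 95% interval 0.11 to 1.06, limma adjusted p = 0.476), and it became 0.82 or 0.35 when replicate 1 or 2 of 11.2 mM was left out. Gadd45g (17718415) had 9.37 and 9.39 at 22.4 mM, against 9.96 and 9.66 at 11.2 mM. The difference was -0.43 (SE 0.134, 1.35-fold lower, limma adjusted p = 0.478), and -0.28 without replicate 1 of 11.2 mM. Gadd45b (17833546) had 6.85 on both arrays at 22.4 mM, against 6.79 and 6.88 at 11.2 mM, a difference of 0.013 (95% interval -0.24 to 0.27). Gadd45gip1, which encodes a partner of Gadd45 proteins that is also part of the mitochondrial ribosome, differed by 0.03. The contrasts between Gadd45a, Gadd45b and Gadd45g were not tested.

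None of the CDK inhibitor genes had groups apart. Among the genes grouped with them by name only Cdkn2aipnl did, by a narrow gap. That made 1 of 6 genes (16.7%, against 40.6% of all rows and 47% of rows at or above the median signal, where all 6 lie). Cdkn1b (17787711), the inhibitor p27Kip1, had 10.06 and 10.11 at 22.4 mM, against 10.15 and 10.01 at 11.2 mM. Its difference was 0.0072 (SE 0.104, 95% interval -0.26 to 0.28). Cdkn2c (17809334), an inhibitor of Cdk4 and Cdk6, had 8.94 and 8.95 at 22.4 mM, against 8.05 and 9.02 at 11.2 mM. It is described because of its spread, after its values were seen. The mean difference was 0.41 (SE 0.33), and without replicate 1 of 11.2 mM it was -0.07, so the sign rested on that array. Cdkn1c and Cdkn2b, further inhibitors, differed by -0.01 and -0.02 at signals close to the median of all rows. Cdkn2aip (17707836), which encodes a partner of the Cdkn2a product ARF, had 7.84 and 7.85 at 22.4 mM, against 7.99 and 7.56 at 11.2 mM, with the high-glucose arrays in between. Cdkn2aipnl, named for its likeness to Cdkn2aip, differed by 0.12.

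Ccng1 and Ccng2 encode atypical cyclins linked to growth arrest, and Ccng1 is a classical p53 target. Ccng1 (17655535) had 11.60 on both arrays at 22.4 mM, against 10.72 and 11.08 at 11.2 mM. The high-glucose arrays were nearly equal and both above the others. The difference was 0.70 (SE 0.149, 1.62-fold, 95% interval 0.31 to 1.09, unadjusted p = 0.00641, limma adjusted p = 0.363). Leaving out replicate 1 or 2 of 11.2 mM gave 0.52 or 0.88. Ccng2 (17693302) had 8.25 and 8.36 at 22.4 mM, against 8.13 and 8.11 at 11.2 mM. Its groups were apart, with a smaller difference of 0.18 (SE 0.0997, 95% interval -0.08 to 0.44). That made 2 of 2 cyclin G genes with groups apart, where 40.6% of all rows were.

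Since Ccng1, Gadd45a and Bax are known p53 targets, the further targets of p53 on a list of 24 names were read from the same fit, and 16 had a row. The list was chosen with earlier results of these data known, so its counts are a description and no independent check. None passed over all rows, but 6 were higher without overlap by at least 0.4 and 1 was lower, where 3.83% and 3.78% of all rows were. Among the 18344 rows at or above the median signal, where 15 of the 16 lie, 1097 were higher in this way and 1057 lower. The median of the 16 targets was 0.05, with 9 positive and 7 negative, so the list as a whole did not lean far. Tp53inp1 (17797247), a stress-induced partner of p53, had 8.10 and 8.18 at 22.4 mM, against 7.29 and 7.37 at 11.2 mM. The gap of 0.81 (SE 0.10, 1.75-fold, limma adjusted p = 0.252) was wide beside the replicate spread. Plk2 (17735703), a stress-responsive polo-like kinase, had 7.79 and 7.82 at 22.4 mM, against 6.94 and 7.05 at 11.2 mM, a difference of 0.80 (SE 0.10, limma adjusted p = 0.252). When only rows with a single gene symbol were tested, 62 of 14824 rows passed. Both genes were among them, with limma adjusted p = 0.0471 for Tp53inp1 and 0.0473 for Plk2. Over all alternatives the adjusted p of each reached up to 0.827.

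**Figure D3:**
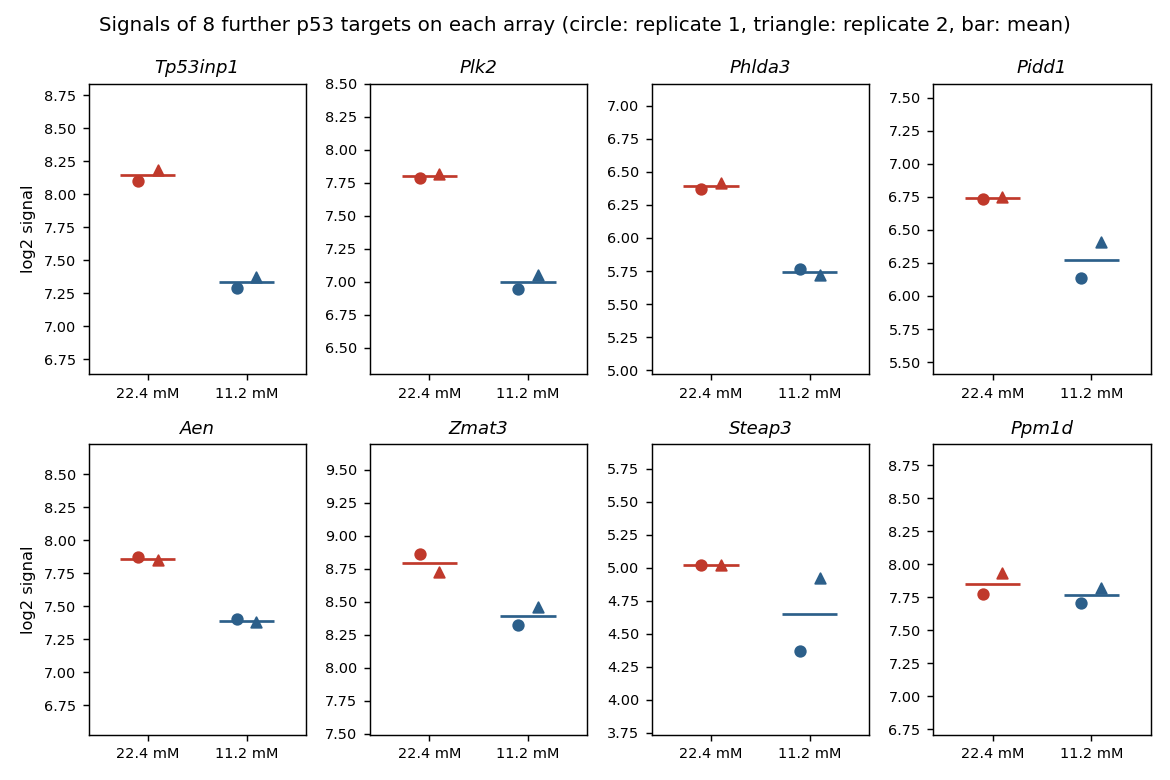
Log2 signal (vertical axis, each panel spanning the same 2.2 log2 units) on the arrays of 22.4 mM and 11.2 mM glucose for the 8 listed p53 targets with the highest differences; circles are replicate 1, triangles replicate 2 and bars the group mean. Replicates of Tp53inp1, Plk2, Phlda3 and Aen are close together beside the gap between the groups, and Steap3 at 11.2 mM spans 4.37 to 4.92.

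The other targets above 0.4 were taken up after their values were seen. Phlda3 (17680418), a repressor of Akt signalling, had 6.37 and 6.42 at 22.4 mM, against 5.76 and 5.72 at 11.2 mM, and differed by 0.65 (SE 0.0949). Aen, an apoptosis-enhancing nuclease, and Pidd1, a death-domain scaffold for caspase activation, each differed by 0.47, and Zmat3, an RNA-binding zinc finger protein, by 0.40. Without replicate 1 of 11.2 mM the differences of Pidd1 and Zmat3 were both 0.33, and that of Steap3, an iron reductase, was 0.10 beside 0.37 with all arrays. The differences of Tp53inp1, Plk2, Phlda3 and Aen moved little with any array left out, and they were 0.77, 0.75, 0.68 and 0.48 without replicate 1 of 11.2 mM. Without that array 4 of the 16 were higher without overlap by at least 0.4, against 3.67% of all rows. On the lower side stood Plk3, another polo-like kinase, with -0.41 (SE 0.191), and the DNA repair gene Xpc with -0.34 (SE 0.122). Without replicate 1 of 11.2 mM these were -0.17 and -0.22. Perp, Ei24, Ddb2 and Ppm1d, which are p53 targets as well, differed by -0.06, 0.01, -0.11 and 0.09. Sesn2, Ckm and Cd82 from the same list differed by -0.15, -0.12 and -0.21, and Cd82 by -0.10 without replicate 1 of 11.2 mM. Counted at any size, 11 of the 16 had groups apart, 7 higher and 4 lower (68.8%, against 47% of rows at or above the median signal).

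**Figure D4:**
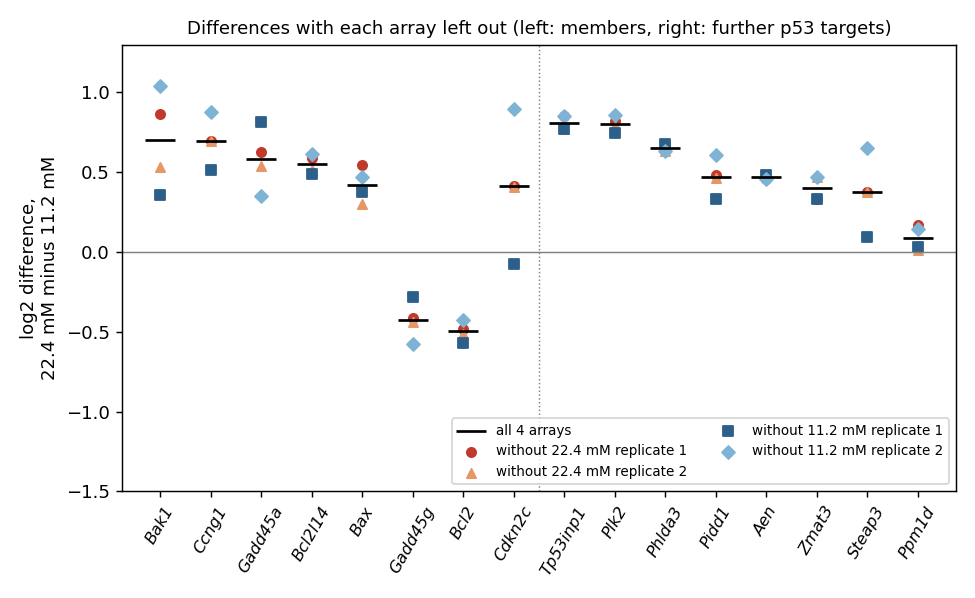
Log2 differences (22.4 mM minus 11.2 mM, vertical axis) of 8 members (left of the dotted line) and 8 further p53 targets (right), with all 4 arrays (bars) and with each array left out (symbols). Cdkn2c goes to -0.07 and Bak1 to 0.36 without replicate 1 of 11.2 mM, while Tp53inp1, Plk2, Phlda3, Aen, Bcl2l14 and Bcl2 keep close to their value.

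Upstream of these targets, 7 of 14 listed p53 regulators were measured and 1 had groups apart (14.3%, against 40.6% of all rows). Chek2 (17678957), a DNA damage checkpoint kinase, had 6.34 and 6.38 at 22.4 mM, against 5.63 and 6.08 at 11.2 mM, with a difference of 0.50 that was 0.28 without replicate 1 of 11.2 mM. Tp53bp2, which encodes a p53-binding protein that promotes apoptosis, differed by -0.08. Cyclins and kinases of entry into S phase had a median of 0.05 over 10 genes, with 5 apart, 4 higher and 1 lower (50%, against 47% of rows at or above the median signal, where 9 of the 10 lie). Ccne2 (17797253), a cyclin that activates Cdk2, had 10.05 and 10.08 at 22.4 mM, against 9.66 and 9.73 at 11.2 mM, a difference of 0.37 (SE 0.096). Tfdp1, the partner of E2F factors, differed by 0.32 (SE 0.0981). The largest differences of that list were those of Ccna2, 0.54 (SE 0.243), and Ccne1, 0.53 (SE 0.184), named after their values were seen. Their groups were apart, and without replicate 1 of 11.2 mM the differences were 0.19 and 0.29. In that list 0 genes passed over all rows.

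The other genes of mitochondrial and receptor-driven death were mixed. Of the BCL2 family genes and partners that the rule does not take, 12 of 13 were measured, and 5 had groups apart, 1 higher and 4 lower (41.7%, against 40.6% of all rows). Bmf (17775655), a BH3-only activator of death, had 4.80 and 4.998 at 22.4 mM, against 4.63 and 4.49 at 11.2 mM, close to the median signal of all rows, with a difference of 0.34 (SE 0.121). Bnip3, a mitochondrial protein of hypoxia and mitophagy, had a difference of -0.35 (SE 0.141), which was -0.19 once replicate 1 of 11.2 mM was left out. Hrk, a BH3-only gene that was named after its values were seen, had 6.48 and 6.50 at 22.4 mM, against 8.41 and 6.59 at 11.2 mM. Only replicate 1 of 11.2 mM was high, and without it the difference of -1.01 was -0.10.

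Mitochondrial factors that act after pore opening had a median of -0.07 over 11 genes, with 2 higher and 3 lower without overlap (45.5%, against 47% of rows at or above the median signal, where all 11 lie). Htra2, a protease released from mitochondria, differed by -0.19 (SE 0.0963), and Dffa, the inhibitor of the DNA-cutting nuclease Dffb, by 0.26 (SE 0.14). Without replicate 1 of 11.2 mM the difference of Dffa was 0.10. Of 14 death receptor ligands and adaptors, 4 had groups apart (28.6%, against 40.6% of all rows), all higher, and 8 of the 14 lay below the median signal. Tnfsf10 (17737479), the death ligand TRAIL, had 7.13 and 7.14 at 22.4 mM, against 6.25 and 6.71 at 11.2 mM. Both high-glucose arrays were the brighter, and the difference was 0.65 (SE 0.177, 1.57-fold, limma adjusted p = 0.433), or 0.42 without replicate 1 of 11.2 mM. Fadd, the adaptor that binds Casp8, differed by 0.27, and by 0.06 without that array.

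NF-kB genes, which lie downstream of TNF receptors and TRAF proteins, had a median of 0.01 over 12 genes, with 2 higher and 3 lower without overlap (41.7%, against 40.6% of all rows). Nfkb2 (17626119), the precursor of the non-canonical subunit, had 6.05 and 6.16 at 22.4 mM, against 7.31 and 6.67 at 11.2 mM. The difference was -0.88 (SE 0.232, 1.84-fold lower, limma adjusted p = 0.424), and it was -0.56 without replicate 1 of 11.2 mM. Nfkbia (17821997), the inhibitor that NF-kB itself induces, had 8.07 and 8.21 at 22.4 mM, against 7.70 and 7.84 at 11.2 mM, a difference of 0.37 (SE 0.112). CHOP stress genes had a median of -0.65 over 8 genes with all arrays and 0.17 without replicate 1 of 11.2 mM. Chac1, a glutathione-degrading enzyme of that pathway, differed by -1.46 and by -0.14 without that array. Eif2ak3, the endoplasmic reticulum kinase PERK, differed by 0.38 (SE 0.126), and by 0.50 without it.

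**Figure D5:**
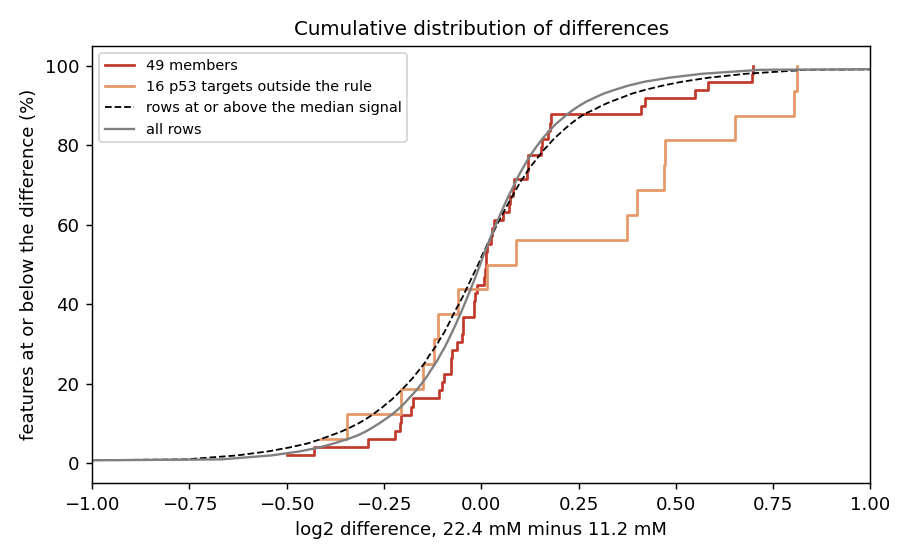
Share of features (vertical axis, percent) at or below each log2 difference (22.4 mM minus 11.2 mM, horizontal axis, drawn from -1 to 1) for the 49 genes, the 16 measured p53 targets outside the rule, rows at or above the median signal and all rows. The 49 genes have a median of 0.012, against -0.0027 over all rows. Of them, 8 differed by at least 0.4 in either direction, against 3240 of 36685 rows. Among rows at or above the median signal it was 2413 of 18344. The upper part of the p53 targets lies to the right of the curve of all rows, up to 0.81.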

How the data were processed

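The 4 arrays are of an Affymetrix type hybridized with labelled cDNA made from total RNA, per the labels' protocols. The authors deposited 1 table of 36685 rows with a log2 value per array. Base 2 was inferred from values of 2.23 to 13.21. The steps of background correction, normalization and summarization are not given in these sources, and the values were used as deposited.

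The platform's annotation names 14824 rows with a single symbol and 829 with several, and 21032 rows are unnamed here. All 49 members matched a RefSeq gene of assembly GRCr8 by Entrez identifier, with 0 symbols changed, and 38 matched a RefSeq promoter. Groups were compared in R 4.3.3 by lmFit and eBayes of limma 3.58.1 (two-sided, 2 residual degrees of freedom) over all rows, with Benjamini-Hochberg adjustment and a threshold of 0.05. Differences are 22.4 mM minus 11.2 mM. The number of arrays limits the precision, with a median standard error of 0.117 over the members. The code was also run on 36685 simulated rows of independent spread, where it called 85 of 100 with a true log2 difference of 2 and 13 of 100 with a true difference of 1. It made 10 false calls there.

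Array values are given for members without overlap of the groups and a difference of at least 0.4, for a fixed set of core members where they have a row, and for others that fill out a family, chosen with values in view. Of each further pathway list the 2 genes with the smallest unadjusted p were named. The members and lists were chosen with earlier results of these data known. Figures were drawn with matplotlib 3.10.9.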

Additional observations from a re-analysis of the deposited data

How the results depend on the processing

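With 2 arrays a group and 2 residual degrees of freedom, small differences could not be called at this precision, and background levels are not given, so dim signals carry no settled size. The settings tried were quantile normalization, centring on array medians, testing only rows with a single symbol or only rows at or above the median signal, eBayes with trend and robust, the mean of a gene's rows, a replicate block, and leaving out each array. The count of members past the threshold was 0 in each. Because every member has 1 row, taking the mean of a gene's rows could not alter their differences. With only single-symbol rows tested, 62 of 14824 rows passed, and 2 of them were other pathway genes, Tp53inp1 and Plk2. In that fit 12.9% of rows had an unadjusted p under 0.05, against 9.12% over all rows, and the cause was not tested. Over all alternatives their adjusted p ranged from 0.0471 to 0.827 and from 0.0473 to 0.827. The titles give both groups replicate numbers 1 and 2, but deviations of same-numbered arrays had a correlation of -0.078 over rows, so the numbers were not taken to pair the arrays. With the replicate block 0 members passed, the lowest adjusted p was 0.562 and the number of members at an unadjusted p under 0.05 was 7. Leaving out each array gave 30 to 37 members without overlap, as a group of 1 array overlaps less easily (67.9% to 74.8% of all rows), and member medians of -0.0018 to 0.056, the highest without replicate 1 of 22.4 mM. Of 328 values of 30 named genes under the alternatives, 8 had the opposite sign. These were Cdkn1b with quantile normalization (-0.001) and in the fits without replicate 2 of 11.2 mM (-0.059) and replicate 2 of 22.4 mM (-0.019), Casp8 without replicate 1 of 11.2 mM (-0.0018) and replicate 1 of 22.4 mM (-0.068), Gadd45b without replicate 1 of 11.2 mM (-0.033), Tnfrsf1a without replicate 1 of 22.4 mM (0.0073) and Tp53bp2 without replicate 2 of 11.2 mM (0.020). With any array left out, differences ran from -0.068 to 0.093 for Casp8, -0.059 to 0.073 for Cdkn1b, -0.033 to 0.059 for Gadd45b, -0.20 to 0.0073 for Tnfrsf1a and -0.18 to 0.020 for Tp53bp2. The cause was not tested.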

Other observations

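Members that lie close together in the rat genome had unequal differences where one of a pair was large. In the RefSeq gene order of GRCr8, 7 pairs of members had at most 10 protein-coding genes between them. Bcl2l14, with a log2 difference of 0.55, and the CDK inhibitor gene Cdkn1b, with 0.0072, had 6 genes between them. Tnfrsf11a, the receptor RANK, and Bcl2 had 2 between them and differed by 0.16 and -0.50. Birc2 and Birc3 are direct neighbours and differed by -0.21 and 0.08. The other pairs were Tnfrsf1b with Tnfrsf8, Tnfrsf4 with Tnfrsf18, Casp1 with Casp12 and Cdkn1c with Tnfrsf26, all with differences between -0.05 and 0.12. Whether neighbours differ from each other was not tested.

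Over the 49 genes, replicate 2 of 22.4 mM was the brightest array in 19 and the dimmest in 9, and replicate 1 of 22.4 mM was the brightest in 10 and the dimmest in 15. Over all rows these arrays were the brightest in 22.7% and 24.5% and the dimmest in 25.9% and 22.5%. The 11.2 mM replicates differed by more than 0.4 on the log2 scale in 5 of the 49 (10.2%, against 14% of all rows), from -0.97 in Cdkn2c to 0.71 in Tnfrsf21.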
